A study of Mus musculus with 1 sample.

Results

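Cells of a mouse alveolar macrophage (AM) preparation that hold transcripts of the monocyte-like cluster 3 genes were examined. Members were selected on measured values: a cell was a member if it had at least 1 unique molecular identifier (UMI, a tag that counts 1 captured mRNA molecule) of Ccr2, Ifitm3, Marcks, Tnip3, Dcstamp, Plbd1 or Il7r, the genes that the study names for its cluster 3 apart from those of MHC class II. This rule gave 100 of 2055 cells, or 4.87% (95% exact binomial interval 3.98% to 5.89%). Of these, 91 cells held 1 of the 7 genes and 9 cells held 2 or more (0.438% of all cells, interval 0.200% to 0.830%). The 9 cells are given apart throughout.

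The study asked how the histone deacetylase HDAC3 shapes AM populations. The cells analysed here are from 1 adult mouse of 8 to 12 weeks, labelled wild-type, which carried the floxed Hdac3 alleles without Cre; its strain was FVB/NJ backcrossed to C57BL/6 for over 10 generations. CD45+CD11c+SiglecF+ lung cells were sorted, 5000 of them were loaded, and 1 droplet 3' library was made. The library labelled Cre-positive was not analysed here.

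AMs are self-renewing phagocytes of the airspace that clear surfactant and depend on PPAR-γ. Monocytes reach tissues through the chemokine receptor CCR2, and those that settle in the lung can take on AM features. MHC class II molecules present peptides to CD4+ T cells and are abundant in dendritic cells, while resident AMs carry little of them.

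The 7 genes have separate roles. Ccr2 encodes the receptor for CCL2 and Il7r a chain of the receptors for IL-7 and TSLP. Ifitm3 encodes an interferon-induced membrane protein that blocks virus entry, Tnip3 a partner of the NF-kB inhibitor A20, and Marcks an actin-binding substrate of protein kinase C. Dcstamp encodes a membrane protein needed for the fusion of macrophages and osteoclasts, and Plbd1 a phospholipase B-like protein of lysosomes. On GRCm38, Ccr2 lies on chromosome 9 (124101950 to 124113557), Ifitm3 on chromosome 7 (141009586 to 141010770), Marcks on chromosome 10 (37133375 to 37138920) and Tnip3 on chromosome 6 (65525313 to 65634040). Dcstamp lies on chromosome 15 (39745930 to 39760938), as does Il7r (9505788 to 9530176), and Plbd1 lies on chromosome 6 (136612070 to 136661928). None of the 98-base sequences at the 3' ends of these genes occurs in a transcript of another gene.

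All 7 genes were rare. Ccr2 was found in 28 cells (31 UMIs), Ifitm3 in 26 (69 UMIs), Marcks in 22 (30 UMIs) and Tnip3 in 22 (33 UMIs). Dcstamp was found in 8 cells (10 UMIs), Plbd1 in 4 (8 UMIs) and Il7r in 3 (3 UMIs). Most of these cells rest on a single molecule: 80 members held 1 UMI over all 7 genes, just inside the rule, and 1955 cells held 0, just outside it. Ifitm3 was the gene with most cells at 2 or more UMIs, 9 of its 26, and reached 11 UMIs in a cell, whereas Ccr2 had 2 or more in 3 of 28 cells.

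Membership followed depth. Members had a median of 4095.5 UMIs and 1630 genes, and other cells 3247 UMIs and 1447 genes, with medians of 3.3% and 3.2% of UMIs on mitochondrial genes. With the cells split by UMIs into 5 equal groups, members made up 15 of the 412 cells with the fewest UMIs (3.64%) and 34 of the 411 with the most (8.27%). When every cell with at least 2000 UMIs was thinned to 2000, which left out 12 members and 287 other cells, the shares in these groups were 2.65% and 2.92%, and their intervals overlapped. Ratios below therefore weight the other cells to the depth of the members, unless stated otherwise. Counts and shares of cells are not adjusted for depth unless matched cells or thinning are named.

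**Figure D1:**
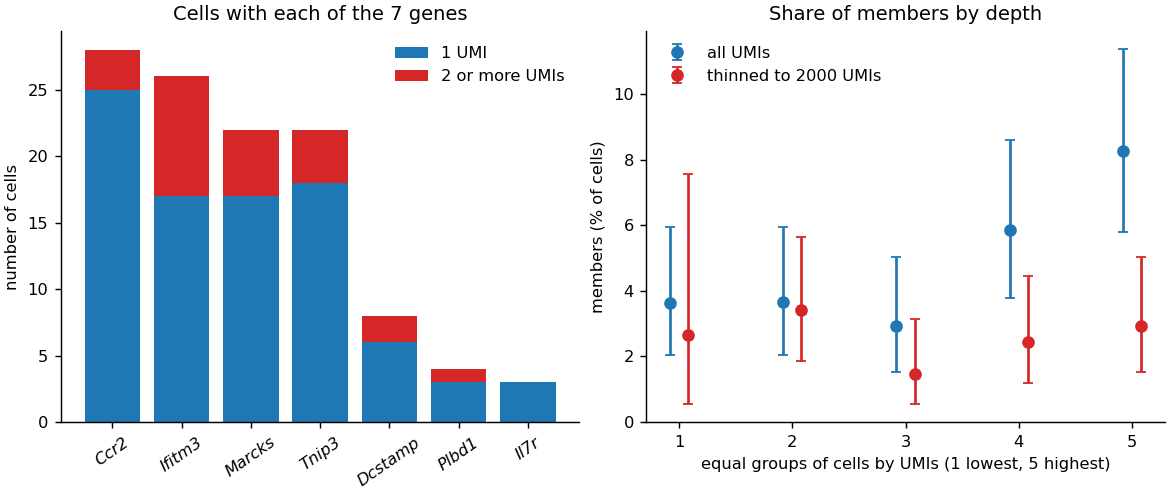
Left, number of cells with a UMI of each of the 7 genes, split into cells with 1 UMI (blue) and with 2 or more (red). Right, members as a percentage of the cells in 5 equal groups of cells ordered by UMIs per cell, with all UMIs (blue) and after thinning to 2000 UMIs (red), with exact 95% binomial intervals: the share is 8.27% in the deepest group with all UMIs and 2.92% after thinning.

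Most members held 1 of the genes, and Marcks was most often found with another. Of 22 cells with Marcks, 8 held another of the 7 genes (36.4%, interval 17.2% to 59.3%), against 3.86% of depth-matched cells without Marcks. The partner was Tnip3 in 4 cells, Ifitm3 in 3 and Dcstamp in 2. Of 28 Ccr2 cells, 2 held another gene (7.14%, interval 0.877% to 23.5%), against 4.46% of matched cells. The share was 18.2% (5.19% to 40.3%) of 22 Tnip3 cells against 3.79%, and 15.4% (4.36% to 34.9%) of 26 Ifitm3 cells against 3.87%. Both sides of this comparison are genes of the rule, so it is a description. Marcks entered 8 of the 9 cells with 2 or more genes.

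The label monocyte-like was checked against transcripts that the rule did not use. Of 22 monocyte genes, 17 have values here, and their summed level was 23.1 UMIs per 10000 in members and 20.1 in matched other cells, a ratio of 1.15 (95% exact Poisson interval 1.07 to 1.23). All intervals of ratios cover counting error only, and with 1 library there is no replicate and no p-value. Csf1r, the receptor of the macrophage growth factor CSF1, had a ratio of 1.53 and Ccl9, a chemokine, 1.69, while Fn1 (1.01), Cd14 (1.05) and Lyz1 (1.02) were level with the other cells. All 7 monocyte genes with at least 0.5 UMI per 10000 had a ratio above 1, and 2 of them, Csf1r and Ccl9, reached 1.5, although Csf1r passed this limit only through the members. Some of the rarer markers had high ratios from few cells. Plac8, abundant in blood monocytes, had 14 UMIs in 2 members and 4 in other cells (ratio 58.4, 18.3 to 243.7). Itgam, which encodes CD11b, had 3 UMIs in 2 members (6.44, 1.12 to 25.8) and Hp, which encodes haptoglobin, 5 in 3 members (9.17, 2.41 to 30.5). Each of these 3 genes was thus found in no more than 3 of 100 members, and in no more than 9 of the other cells, where a count of 0 does not show that a cell lacks the transcript. The remaining rarer markers ranged from 0.41 (0.01 to 2.51) for Cx3cr1 to 2.16 (0.67 to 5.45) for Ace. Among them Spn (0.96), S100a4 (1.02) and Itga4 (1.22) were near the other cells. The cells are called here by the 7 genes.

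The summed AM programme of the members was close to that of the other cells, but most of its genes were lower. The 24 AM identity genes summed to 384.9 UMIs per 10000 in members and 410.9 in matched other cells, a ratio of 0.94 (0.92 to 0.95). Chil3, a chitinase-like lectin that weighs heavily in this sum, stood at 142.7 UMIs per 10000 in members and 138.3 in other cells. The median ratio of the 24 genes was 0.866, against 0.974 over all 2765 genes with at least 0.5 UMI per 10000. Of the 24 genes, 21 had a ratio below 1, and 2 of them lay at or below 1 in 1.5: Siglecf, the sorting marker, with a ratio of 0.53 (0.37 to 0.74), and the keratin Krt19 with 0.63 (0.48 to 0.82). Siglecf was found in 35% of members and 41.7% of other cells, and after thinning in 18.2% and 28.9%. The 9 cells with 2 or more genes had a lower identity ratio, 0.71 (0.67 to 0.75), than the 91 cells with 1 gene, 0.96 (0.94 to 0.98).

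Across all 2765 genes with at least 0.5 UMI per 10000, 45 (1.63%) had a ratio of at least 1.5 and 81 (2.93%) of at most 1 in 1.5, and the median ratio was 0.974. These counts depend on the scale and the limit: they were 2 and 0 on mean log values, and 431 and 824 from 0.1 UMI per 10000. Against this background 4 of 6 MHC class II genes, 4 of 4 interferon-induced genes and 7 of 15 NF-kB feedback and cytokine genes with that level lay at or above 1.5, and 0 of these 25 genes lay at or below 1 in 1.5. H2-Eb1 passed the level limit only through the members. The NF-kB count rests largely on the 9 cells with 2 or more genes. In the 91 members with 1 gene, Cxcl1 had a ratio of 1.27, Tnf 1.24 and Il1a 1.30. Cxcl2 had 1.33 and Nfkbiz 1.37 there, while Il1b and Nfkbia stayed just above 1.5. A single member, cell 5 below, held 46 of the 97 Cxcl1 UMIs of members and 124 of the 816 of Cxcl2. With the limit set in the matched other cells, which 2765 genes also passed, 42 genes (1.52%) lay above and 88 (3.18%) below, with 3 of 5 class II genes above and the interferon-induced and NF-kB counts as before. Of the genes in the study's own cluster 3 list, 15 of 143 lay above and 0 below, with a median ratio of 1.07. That list was drawn from this experiment and is not independent evidence of a direction. The class II count is not independent either. The study describes its cluster 3 by higher antigen-presentation transcripts in these same cells, and the 7 rule genes were named for that cluster.

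Among the genes with at least 0.5 UMI per 10000, 4 of the class II pathway had the highest ratios; some rarer genes had higher ones from few UMIs, such as Plac8. H2-Eb1 reached 4.97 UMIs per 10000 in members against 0.413 in matched other cells, a ratio of 12.0 (9.97 to 14.5), although its level in the other cells was below that limit. The ratio was 8.22 (7.25 to 9.31) for H2-Ab1, 7.22 (6.34 to 8.21) for H2-Aa and 5.90 (5.50 to 6.32) for Cd74, the invariant chain that loads with them. H2-Ab1, H2-Aa and H2-Eb1 are neighbours on chromosome 17 of GRCm38, from 34257689 to 34316674. H2-DMa, which helps load peptides, had a ratio of 1.10 (0.92 to 1.31), and H2-DMb1 had 1.499 (1.10 to 2.01). Among the rarer ones, H2-Oa had 7.17 (2.04 to 20.8) from 5 UMIs in members. H2-DMb2 had 0.76 (0.15 to 2.32) from 3 UMIs. The class II regulator Ciita was at 0 in members and had 3 UMIs in other cells, too few to compare. The high ratios rest on few cells: a single cell held 31.2% to 36.0% of the UMIs of each of these 4 genes in members, and the list ratio of 4.83 fell to 1.12 without the 5 members with 50 or more UMIs of H2-Aa, H2-Ab1 and H2-Eb1.

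Class II-positive cells, those with at least 3 UMIs of these 3 genes, made up 19 of 100 members (19.0%, interval 11.8% to 28.1%) and 11.5% of matched other cells. Members were 9.09% of the 209 positive cells of the library. In counts not adjusted for depth, all 5 cells with 50 or more UMIs were members. Among other cells 0 of 1955 had as many, which allows a share of up to 0.153% at the limit of 3 counts (exact interval up to 0.189%). The highest other cell had 49, just below this limit. Members did not stand alone once depth was taken into account. An other cell with 3489 UMIs held 46 class II UMIs, and a member with 7549 UMIs held 81. Per 10000 UMIs, the class II list reached 438.5 in an other cell, 522.0 in members with 1 gene and 1054.8 in those with 2 or more. Without depth weights, the 14 positive members below 50 had a level of 17.8 UMIs per 10000, close to 16.6 in the 190 positive other cells. For comparison, Sftpc, a transcript of lung epithelium that AMs are not known to make, was found in 7.0% of members and 6.85% of other cells (4.55% and 4.14% after thinning). This value covers that transcript alone, and whether its UMIs came from free RNA was not tested. Free class II RNA was not measured, and a single class II UMI cannot be told apart from it.

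**Figure D2:**
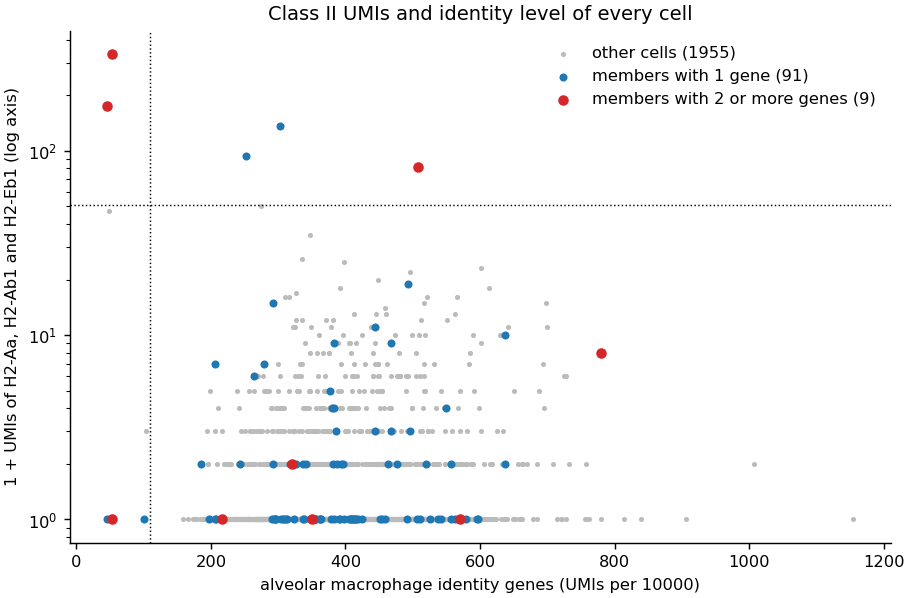
Each point is a cell, with the summed level of 24 AM identity genes (UMIs per 10000) on the horizontal axis and 1 plus the UMIs of H2-Aa, H2-Ab1 and H2-Eb1 on a logarithmic vertical axis; other cells are grey, members with 1 gene blue and members with 2 or more red. The horizontal dotted line marks 50 UMIs, with 5 members and 0 other cells above it, and the vertical line an identity level of 110, with 5 members and 3 other cells to its left.

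Interferon-induced genes were higher as a group. The 21 listed genes summed to 10.8 UMIs per 10000 in members and 5.20 in matched other cells, a ratio of 2.08 (1.88 to 2.30). Ifi27l2a (ratio 2.28), Ifitm2 (2.18), Bst2, which tethers budding virus (1.94), and Ly6e (1.62) were the 4 above the level limit. Among the rarer ones, Zbp1, a sensor of viral nucleic acid, was found in 16% of members and 3.84% of other cells, and in 9.09% and 2.1% after thinning, a difference larger than the counting intervals (4.01% to 17.1% and 1.47% to 2.91%). Isg15 was found in 8 members, and 1 cell held 41.2% of its 34 UMIs there.

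NF-kB feedback and cytokine genes had a ratio of 1.42 (1.36 to 1.49) as a list, and 1.26 without the cell with most of their UMIs. Il1b, which encodes the cytokine IL-1β, was at 3.70 UMIs per 10000 in members and 1.86 in matched other cells (ratio 1.99, 1.67 to 2.36). Nfkbia, the IκBα inhibitor, had 1.58 and Tnfaip3, which encodes A20, the partner of the Tnip3 product, had 1.44. Il1rn (1.00), Ccl3 (1.10) and Ccl4 (0.93) were near the other cells. Immediate-early genes, which rise during tissue dissociation, had a list ratio of 0.97 (0.93 to 1.01).

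The partners of the rule genes were close to the other cells as a list. The 25 listed partners together had a ratio of 1.05 (0.99 to 1.10). Ccl2, a ligand of CCR2, had a ratio of 1.07 (0.69 to 1.60), and Jak1, which signals below the IL-7 receptor, 1.09 (0.80 to 1.46). Ctsk, an osteoclast protease named with Dcstamp, had 1.27 and Acp5 0.88. Marcksl1, the relative of Marcks, had a higher ratio, 2.37 (1.41 to 3.8), from 20 UMIs in members, and was found in 15.0% of members and 5.83% of other cells (9.09% and 3.84% after thinning).

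Across all genes above the level limit, listed or not, the highest ratios with no dominant cell included those of AW112010 (2.03), Lst1 (1.94), the small zinc-binding protein gene Crip1 (1.90), Klhl24 (1.82), Hmgb2 (1.69), Ccl9 (1.69) and the interferon-inducible Trim30a (1.67). AW112010 was found in 77 members and Crip1 in 61. Hmgb2, a chromatin protein of dividing cells, is uncertain, since 49.5% of its 3' sequences also occur in Gm4739. Ratios were also high for genes of which 1 cell held over 20% of the UMIs in members, among them Ms4a6c (2.67), Cxcl1 (2.59), Apoe (2.30), Cst3 (2.21), Wfdc17 (1.84), Il1a (1.71), S100a6 (1.68), Slc7a11 (1.63), Cd83 (1.59) and Tnf (1.59). Low ratios, from Mgat4a (0.45) and Mtmr6 (0.49) to Pds5a, Faim, Tmem219, Cramp1l, Hspa1a and Gps2 (0.53), rest on 11 to 16 UMIs each in members. Jchain, a plasma cell gene, had a ratio of 0.09 because 1 other cell held 93.7% of its UMIs outside members, and Gpr155 (0.60) and Klhl21 (0.63) were low with over 20% of their UMIs in a single member.

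**Figure D3:**
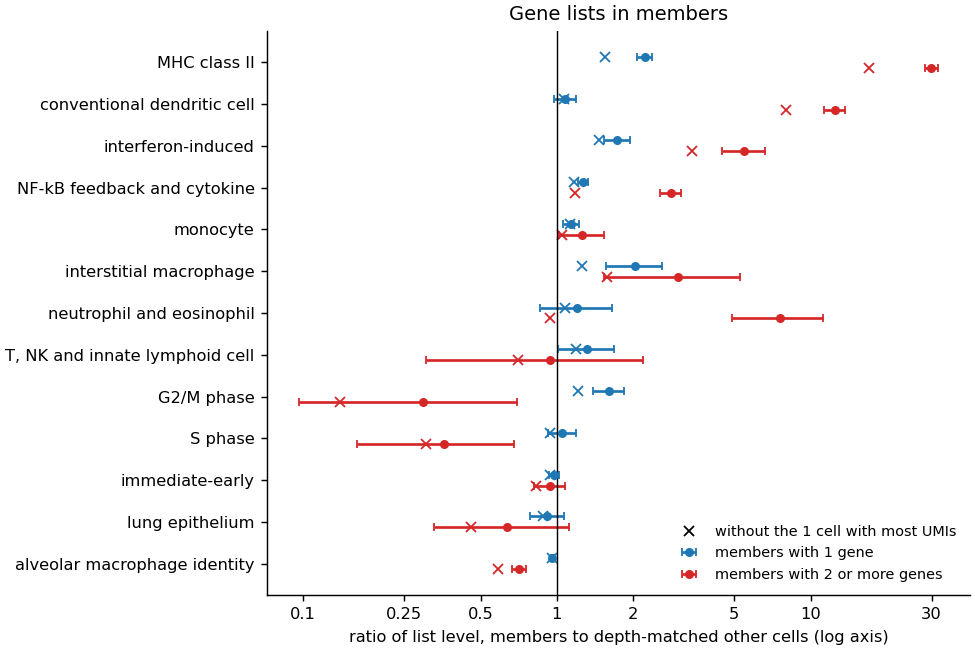
Ratio of the summed level of each gene list, members to depth-matched other cells, on a logarithmic axis, for the 91 members with 1 gene (blue) and the 9 with 2 or more (red); bars are exact 95% Poisson intervals (counting error only) and crosses give the ratio without the cell with most UMIs of the list. The identity list is near 1 in cells with 1 gene (0.96), and the class II list is at 29.9 in cells with 2 or more genes and 17.1 without its top cell.

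The 9 cells with 2 or more genes differed more than the 91 cells with 1 gene on most lists. The class II ratio was 29.9 (28.2 to 31.7) against 2.22 (2.07 to 2.38), the interferon ratio 5.46 (4.48 to 6.60) against 1.73 (1.54 to 1.93), and that of conventional dendritic cell genes 12.4 (11.3 to 13.6) against 1.08 (0.98 to 1.19). These intervals do not overlap, but the contrast rests on few cells. In the 9 cells 1 cell held 53.0% of the class II UMIs and 47.5% of the dendritic cell UMIs. For the interferon list 1 cell held 46.4%. Without the top cell of each list the class II, dendritic cell and interferon ratios were 17.1, 7.99 and 3.40. Of the 484 dendritic cell UMIs, Cst3 gave 215 in 1 cell and 199 in another. Cst3 was the 1 gene of the dendritic cell list above the level limit. Among the rarer ones, Clec9a, a receptor of conventional dendritic cells that take up dead cells, had 5 UMIs in 2 members (ratio 6.76, 1.91 to 19.9) and 14 UMIs in other cells. The chemokine genes Ccl22, with 8 UMIs in 3 members, and Ccl17, with 20 UMIs in 10, had ratios of 15.6 (5.44 to 42.6) and 1.91 (1.13 to 3.06). Zbtb46, Ccr7 and Irf4 were at 0 in members and had 2, 15 and 8 UMIs in other cells. G2/M genes had a ratio of 0.30 (0.10 to 0.69) in the 9 cells.

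The profile also depended on which gene a cell held. Cells with Ccr2 had a class II ratio of 0.75 (0.61 to 0.90), below the other cells, and a G2/M ratio of 3.44 (2.91 to 4.04), or 2.38 without the cell with most G2/M UMIs. In counts not adjusted for depth, at least 10 G2/M UMIs were found in 4 of 28 Ccr2 cells (14.3%, interval 4.03% to 32.7%) and in 62 of 1955 other cells (3.17%). The Ccr2 cells were deeper, with a median of 4214 UMIs against 3247 in other cells. Cells with Ifitm3, Marcks and Tnip3 had G2/M ratios of 0.35, 0.63 and 0.45. Marcks, Tnip3 and Dcstamp cells had class II ratios of 14.5, 13.3 and 31.1, but these rest on the 5 members with 50 or more class II UMIs. Of the 1382 class II UMIs of Marcks cells, 1300 were in 3 of them, and without these the ratio was 1.11 (0.88 to 1.38). The median Marcks cell had 4.66 class II UMIs per 10000 and the median other cell 5.34. Tnip3 cells had 1378 of 1465 UMIs in 4 cells and a ratio of 1.10 (0.88 to 1.35) without them. Dcstamp cells had 1100 of 1156 in 2 cells, both of them Marcks cells too, and a ratio of 2.26 (1.71 to 2.94) in the other 6. The class II ratio of Plbd1 cells was 36.7 and fell to 0.09 without 1 of the 4 cells.

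The 26 Ifitm3 cells held 246 of the 442 interferon-induced UMIs found in members. Their interferon list ratio, with Ifitm3 left out, was 4.41 (3.86 to 5.02), and 3.64 without the top cell. It differed between cells with 1 Ifitm3 UMI and with more: the 17 cells with 1 UMI had 1.67 (1.28 to 2.14) and the 9 cells with 2 or more had 9.93 (8.51 to 11.5). The identity ratio of these groups was 1.03 (1.00 to 1.07) and 0.64 (0.60 to 0.68).

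**Figure D4:**
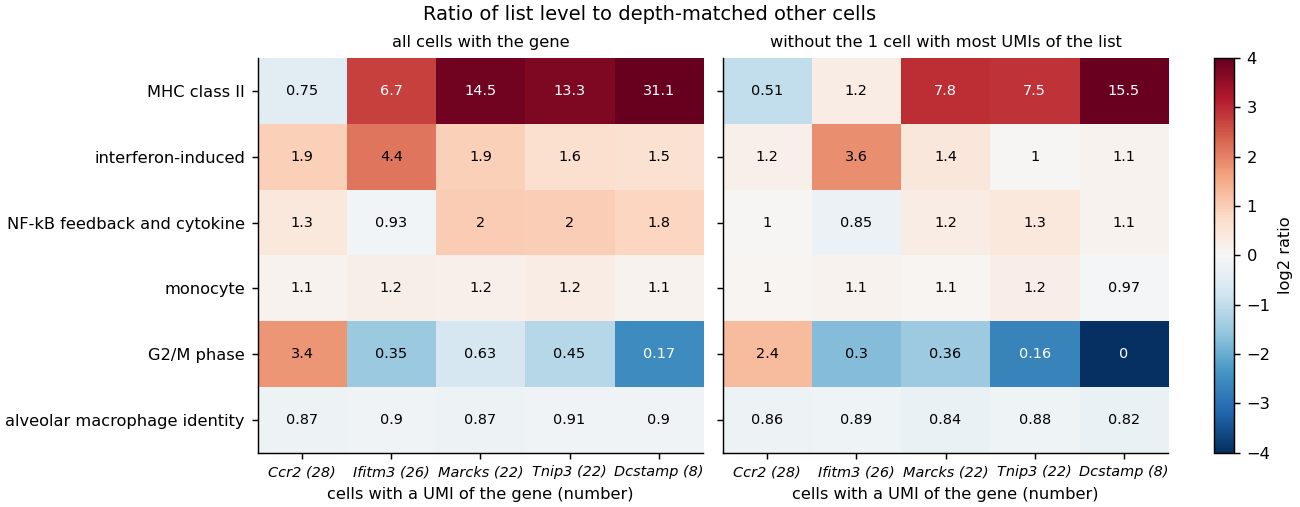
Ratio of list level to depth-matched other cells (numbers in the cells; colours give log2 of the ratio, cut at 4 in either direction) for cells with a UMI of each of 5 genes, with the number of cells in brackets, for all such cells (left) and without the cell with most UMIs of the list (right). Ccr2 cells are high for G2/M (3.44) and low for class II (0.75), Ifitm3 cells high for interferon-induced genes (4.41), and the class II ratios of Marcks, Tnip3 and Dcstamp cells (14.5, 13.3 and 31.1) are lower without the top cell (7.81, 7.47 and 15.5), where 1 or more class II-high cells remain.

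Because Ifitm3 moved with other interferon-induced genes, the 250 bases upstream of their RefSeq start sites (GRCm38.p6, all on the minus strand) are shown, 5′ to 3′, for Ifitm3, its neighbour Ifitm2, and Isg15 and Rsad2, which lead the cells described next. Capitals mark matches to an interferon response element, searched as GAAA, any 2 bases and GAAA again, on both strands; overlapping matches run together.
Ifitm3 (chr7:141010745-141010994): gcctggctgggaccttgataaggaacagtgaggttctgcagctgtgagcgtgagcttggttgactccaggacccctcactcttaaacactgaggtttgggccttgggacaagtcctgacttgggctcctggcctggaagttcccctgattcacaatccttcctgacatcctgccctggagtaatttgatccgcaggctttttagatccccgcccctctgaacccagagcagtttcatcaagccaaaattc
Ifitm2 (chr7:140955962-140956211): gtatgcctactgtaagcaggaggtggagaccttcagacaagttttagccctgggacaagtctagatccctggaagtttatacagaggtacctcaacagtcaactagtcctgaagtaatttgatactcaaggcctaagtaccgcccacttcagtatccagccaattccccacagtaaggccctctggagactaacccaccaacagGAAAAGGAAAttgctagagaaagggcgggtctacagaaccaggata
Isg15 (chr4:156200819-156201068): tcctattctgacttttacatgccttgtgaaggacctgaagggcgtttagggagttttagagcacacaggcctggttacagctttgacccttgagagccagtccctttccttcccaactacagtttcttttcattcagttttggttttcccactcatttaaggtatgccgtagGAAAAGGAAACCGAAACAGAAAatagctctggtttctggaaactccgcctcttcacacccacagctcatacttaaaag
Rsad2 (chr12:26456453-26456702): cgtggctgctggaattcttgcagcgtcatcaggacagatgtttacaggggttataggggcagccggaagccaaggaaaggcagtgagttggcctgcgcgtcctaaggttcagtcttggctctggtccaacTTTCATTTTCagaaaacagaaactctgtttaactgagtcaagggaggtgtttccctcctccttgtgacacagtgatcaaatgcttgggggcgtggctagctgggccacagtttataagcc
The element occurs 3 times in the Isg15 window, once each in those of Ifitm2 and Rsad2, and in 2.98% of all 32851 windows of this length. It does not occur in the Ifitm3 window. A match is a run of letters and not evidence of a bound factor.

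In total 16 members were described cell by cell: the 9 with 2 or more genes, and 7 with 1 gene that had an identity level under 110, at least 50 class II UMIs or at least 15 interferon-induced UMIs. These limits were set after the values were seen, so the counts they give are descriptions.

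Cells 1 and 6 combined the highest class II and Cst3 counts of the library with low AM identity levels. Cell 1, the only cell with 5 of the 7 genes (Ifitm3, Marcks, Tnip3, Dcstamp and Plbd1), had 331 class II UMIs, 351 of Cd74 and 215 of Cst3, with an identity level of 52.7 UMIs per 10000. Cell 6 (Marcks and Dcstamp) had 173, 211 and 199, with an identity level of 45.5. The median identity level of other cells was 383.1. These were the only cells with 100 or more Cst3 UMIs, and each held Cadm1, an adhesion gene found in 3 cells of the library. They were also the 2 members with Clec9a, 4 UMIs in cell 1 and 1 in cell 6. Cd83, a marker of mature dendritic cells, had 11 and 8 UMIs, and Siglecf was at 0 in both. Cell 1 also had 6 UMIs of the chemokine gene Ccl22 and was among the 30 nearest cells of cell 6.

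Cells 3, 10 and 12 had high class II transcripts within the AM programme. They held 81, 92 and 135 class II UMIs at identity levels of 507.8, 252.2 and 302.1, and each held Tnip3. Cell 3 was set apart by genes typical of interferon-γ, with 21 UMIs of Cxcl9, 19 of Cxcl10, 7 of Gbp5 and 74 of AW112010. Cell 10 had 69 UMIs of Wfdc17, and cell 12 had 7 of Cfb, a complement factor. Cxcl9 was found in 27 cells of the library and Gbp5 in 10.

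Cells 4, 11, 13 and 14 held 6, 3, 3 and 8 Ifitm3 UMIs and 51, 54, 23 and 19 interferon-induced UMIs, with identity levels from 206.6 to 423.9. With cell 3 (31 UMIs) they were the 5 members with at least 15, a count that 2 of 1955 other cells reached, without adjustment for depth. Cells 4 and 11 had 13 and 14 UMIs of Isg15 and 6 and 2 of Rsad2. Class II UMIs were at 0 in cells 4, 11 and 13. Cell 14 was led by Ifi27l2a, with 12 UMIs.

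Cells 7 and 16 held the most Ifitm3, 11 UMIs each, and were the 2 members with Plac8 (8 and 6 UMIs). They were shallow, with 2084 and 1404 UMIs, had identity levels of 53.1 and 100.5, and held 9 and 4 UMIs of Lst1, 6 and 12 of Apoe and 7 and 9 of Ifitm2. Cell 7 also had 23 UMIs of S100a8 and 3 of Hp, genes of neutrophils and monocytes. H2-Aa, H2-Ab1 and H2-Eb1 were at 0 in both, and cell 16 was the nearest of the 16 to cell 7. Plac8 was found in 2 other cells of the library, with 4 UMIs in all.

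Cell 15, with 1 UMI of Il7r, had an identity level of 46.2 and was led by Ramp3 (5 UMIs), Ctla2a (5 UMIs), the T cell costimulatory receptor gene Tnfrsf18 (3 UMIs) and the killer cell receptor gene Klrk1 (2 UMIs). The lymphoid list has 3 of its 18 genes listed here, so it was not named further.

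The other 4 cells with 2 genes or more had no such profile in common. Cell 5 (Marcks and Tnip3) was led by inflammatory genes, with 124 UMIs of Cxcl2, 46 of Cxcl1, 26 of Tnf and 22 of Il1b. Cell 8 (Marcks and Il7r) had 14 UMIs of the elastase gene Mmp12 and the highest identity level of the 16, 779.9. Cell 9 (Marcks and Tnip3) had 7 UMIs of Osm and 5 of the inflammasome gene Nlrp3. Cell 2 held Ccr2, Ifitm3 and Marcks with no more than 6 UMIs of any of its leading genes.

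**Figure D5:**
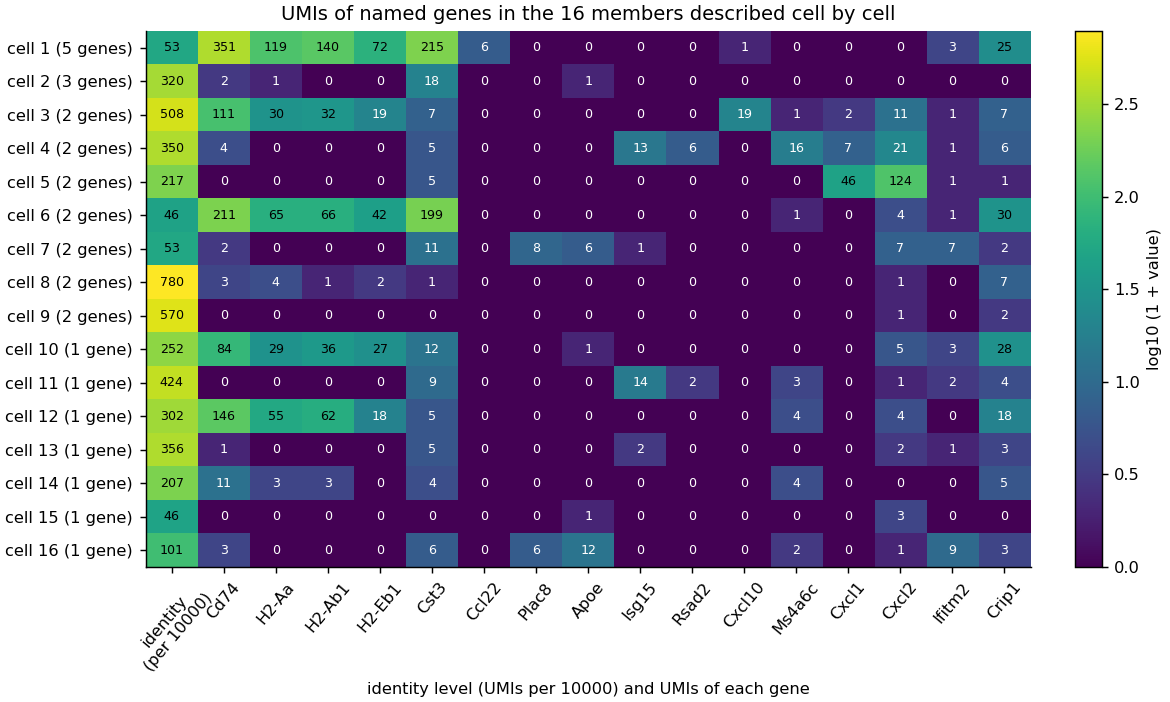
Identity level (UMIs per 10000, leftmost column) and UMIs of 16 genes in the 16 members described cell by cell, with colours on the scale of log10 of 1 plus the value. Class II genes and Cst3 peak in cells 1 and 6, Isg15 in cells 4 and 11, Plac8 and Apoe in cells 7 and 16, and Cxcl1 and Cxcl2 in cell 5.

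Low identity was concentrated among members: 5 of 100 members (5.00%, interval 1.64% to 11.3%) and 3 of 1955 other cells (0.153%, interval 0.032% to 0.448%) had an identity level under 110. These members were cells 1, 6, 7, 15 and 16, and Siglecf was at 0 in all 8 cells although the sort selected for its protein. Siglecf is itself an identity gene, so this is partly set by the limit, and it was found in only 41.7% of other cells. The 3 other cells were unlike each other: 1 had 46 class II UMIs and 3 of Plac8, 1 had 940 UMIs of Jchain, and 1 had neither. The members' identity ratio was 0.97 without the 5 cells, which were set apart by that same level.

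The 84 members left after the 16 cells were closer to the other cells on several lists, though not on all. Their monocyte ratio was 1.11 (1.03 to 1.19). The identity ratio was 0.98 (0.97 to 1.00), the class II ratio 1.11 (1.01 to 1.22) and the interferon ratio 1.19 (1.03 to 1.37). These 3 ratios are closer to the other cells partly by construction, since cells were taken out by those transcripts. The dendritic cell ratio was 1.04 (0.93 to 1.15), but cells 1 and 6, with 215 and 199 UMIs of Cst3, were among those taken out. NF-kB and cytokine genes had 1.33 (1.26 to 1.4), and interstitial macrophage genes 1.63 (1.20 to 2.18) from 51 UMIs. G2/M genes had 1.71 (1.48 to 1.97), further from the other cells than the 1.46 (1.26 to 1.67) of all members. The G2/M value of all members fell to 1.11 without 1 cell and turned to 0.57 without Ccr2 in the rule and to 0.35 for cells with at least 2 UMIs of the 7 genes. Lung epithelial genes had a ratio of 0.86 (0.73 to 1.02).

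Members were spread among the other cells. In 15 principal components of the deposited scores of 500 variable genes without the 7 genes, 5.60% of the 30 nearest cells of a member were members, against 3.92% for depth-matched other cells. The share was 4.69% for cells with 1 gene (matched 3.91%) and 14.8% for cells with 2 or more (matched 4.00%). Cell 1 had 7 members and 29 class II-positive cells among its 30 nearest, and cell 3 had 8 and 30. Class II genes are among the genes that can set these components, so nearness partly restates the class II values. Cells 9 and 13 had 1 and 0 members among their nearest.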

How the data were processed

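Single-cell RNA-seq of AMs from 1 WT mouse was analysed. The authors counted UMIs with Cell Ranger 2.1 on mm10 and deposited the natural log of 1 plus UMIs per 10000 UMIs of the cell (Seurat LogNormalize in R 3.3.2). The authors also deposited scaled scores, regressed on UMIs and mitochondrial content, which were used only for the principal components.

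Whole UMIs were recovered from the natural log values as multiples of the smallest step in each cell (100% of values within 0.01), giving 7222978 UMIs over 11918 genes, where cells ranged from 1143 to 8603 UMIs (median 3278). The methods of the study exclude cells with over 2500 genes as doublets, with under 300 genes or with over 5% mitochondrial content. No cell lay outside either gene limit, but 384 of the 2055 cells, the number the study gives, exceeded 5%, so 1671 cells and 87 members meet the stated filter. Genes of ribosomal proteins (108) are also present. No doublet caller was run and all cells were kept.

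Other cells were weighted to the members' depth in 20 equal-number bins of UMIs outside the 7 genes. Levels are pooled UMIs per 10000, ratios have exact conditional Poisson intervals and shares exact binomial ones (95%), and both cover counting error only, since cells of 1 library are not replicates. Genes past 1.5-fold were counted among those with at least 0.5 UMI per 10000. Named genes are the 7 genes, the 10 highest and 10 lowest ratios with genes held over 20% by 1 member apart, and genes of described lists; 2 of the lowest are not reported here. The members and the 17 lists were chosen with earlier results of these data known. Positions are from GENCODE M21, promoters from RefSeq. Interstitial macrophage (ratio 2.13, 1.44 without the top cell), T, NK and innate lymphoid (1.28), neutrophil and eosinophil (1.77, 1.18 without the top cell), B and plasma cell (0.09), endothelium and fibroblast (1.24), lung epithelium (0.89) and S phase (0.98) lists were also compared. Python 3.11.15, numpy 2.4.6, scipy 1.17.1 and pandas 2.3.3 were used, and the ratios were tested on simulated data. Rules, depth weights, filters and neighbour settings were varied.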

Additional observations from a re-analysis of the deposited data

How the results depend on the processing

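The share of members was 0.973% with at least 2 UMIs over the 7 genes (20 cells), 3.60% without Ccr2 and 3.8% without Ifitm3 in the rule, and 2.56% after thinning. The share of cells with 2 or more genes was 0.146% without Marcks. The monocyte ratio was 1.23 as a mean over cells and 1.36 under the 2 UMI rule. The identity ratio was 0.96 without depth weights, 0.81 under the 2 UMI rule, 0.96 without Ccr2, 0.92 without Dcstamp, 0.96 without the 5 members with 50 or more class II UMIs and 0.97 without the 5 with an identity level under 110. The class II ratio was 4.00 as a mean over cells, 12.5 under the 2 UMI rule, 6.46, 5.87, 5.34 and 4.07 without Ccr2, Ifitm3, Marcks and Tnip3, 5.45 both with at most 5% mitochondrial content and under all limits of the study on cells, 1.12 without the 5 class II-high members, 2.57 without the 5 low-identity members and 3.39 without its top cell. The interferon ratio was 5.26 under the 2 UMI rule, 2.41, 1.56 and 2.36 without Ccr2, Ifitm3 and Tnip3, and 1.85 without its top cell. The alternatives that leave out named cells or apply the study's limits on cells, and the level limit in other cells, were chosen after seeing the data. Genes higher and lower by 1.5-fold numbered 431 and 824 from 0.1 UMI per 10000, 1744 and 3309 with no filter, and 2 and 0 on mean log values. The cause of these differences was not tested. Class II-positive members were 40.0% from 1 UMI and 8.00% from 10 UMIs. No list past 1.5-fold changed direction under any alternative run, but the G2/M ratio, 1.46, turned to 0.57 without Ccr2 and to 0.35 under the 2 UMI rule. No paired analysis was possible because there is 1 library. Depth limits the rule itself: 80 of 100 members rest on 1 molecule, and a cell without one may still express the gene.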
